A study of Rattus norvegicus with 10 samples.

Results

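The normal saline (NS) group was the 5 arrays labelled NS, out of 10 arrays in the study, and each array held the total RNA of the lumbar spinal cord of 1 male Sprague Dawley rat. The rats, numbered 6 to 10, weighed 240 to 260 g and received 10 μl of normal saline into the spinal fluid (intrathecally), 2 times daily for 7 days, so that they were injected controls and not untouched animals. Per the study's methods, a further morning injection followed these 7 days, and the rats were put under deep pentobarbital anaesthesia 1 hour after it. The cord was then taken, so the values are those of recently injected, anaesthetized rats. The labels name the tissue as spinal cord, and the study's methods name the lumbar enlargement. Every probe of the array that was not a control was described, and no morphine-treated rat entered any value. The arrays held 24684 such probes, of which 15323 were assigned to mRNAs by a RefSeq NM_ or XM_ accession, 9319 to long non-coding RNAs (lncRNAs) by a probe named after a lncRNA accession, and 42 to neither class. The mRNA probes named through RefSeq numbered 14274 and covered 13888 genes.

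The lumbar enlargement controls the hind limbs. Its white matter consists of long axons wrapped in myelin by oligodendrocytes, and its grey matter holds motor neurons, interneurons that release GABA, glycine or glutamate, astrocytes and microglia. A one-colour array reports the brightness of each probe, and brightness depends on the amount of RNA and on how well that probe binds its target. Ranks of different probes are therefore ranks of signal, and rats were compared by values of the same probe only. Such differences are also differences of signal, which can reflect the scan as well as the amount of RNA. Signal is given as log2 intensity after quantile normalization of the 5 arrays, and a percentile is the share of probes of the same class with a lower mean signal over the 5 rats. A probe was called detected on an array if over 50% of its spots carried the scanner software's flag for a signal well above background.

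The arrays of NS rats 8 and 9 were scanned on another day than those of NS rats 6, 7 and 10, at the same detector setting, and they were dimmer. The median spot intensity was 101 in rat 6, 86.5 in rat 7, 42.1 in rat 8, 29.8 in rat 9 and 75.1 in rat 10, and no spot was saturated. Pairs of arrays of the same scan day had a Pearson r between 0.993 and 0.994 across probes (4 pairs), and pairs of different scan days had an r between 0.979 and 0.985 (6 pairs). Probes are not independent replicates, so these values are descriptions. Rats 8 and 9 may differ from the others as animals or as scans, and the design cannot tell these apart.

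More mRNA probes than lncRNA probes were detected in every rat. The detected share of mRNA probes was 86.0% in rat 6, 85.6% in rat 7, 76.5% in rat 8, 72.8% in rat 9 and 87.1% in rat 10. The detected share of lncRNA probes was 71.9%, 71.1%, 53.5%, 47.7% and 74.1% in the same rats. Both shares were lowest in rats 8 and 9, and the loss was larger for lncRNAs. The mean was 81.6% ± 6.53 (SD, n = 5) for mRNAs and 63.7% ± 12.2 (SD, n = 5) for lncRNAs. The difference ranged from 13.0 to 25.1 percentage points, with a mean of 18.0 ± 5.64 (SD), and it was positive in 5 of 5 rats (two-sided exact sign-flip permutation test, n = 5, p = 0.0625, the smallest p that 5 arrays allow). Most lncRNA probes had 3 spots and most mRNA probes 1 spot, and counting every spot on its own gave a difference of 16.4 percentage points.

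**Figure D1:**
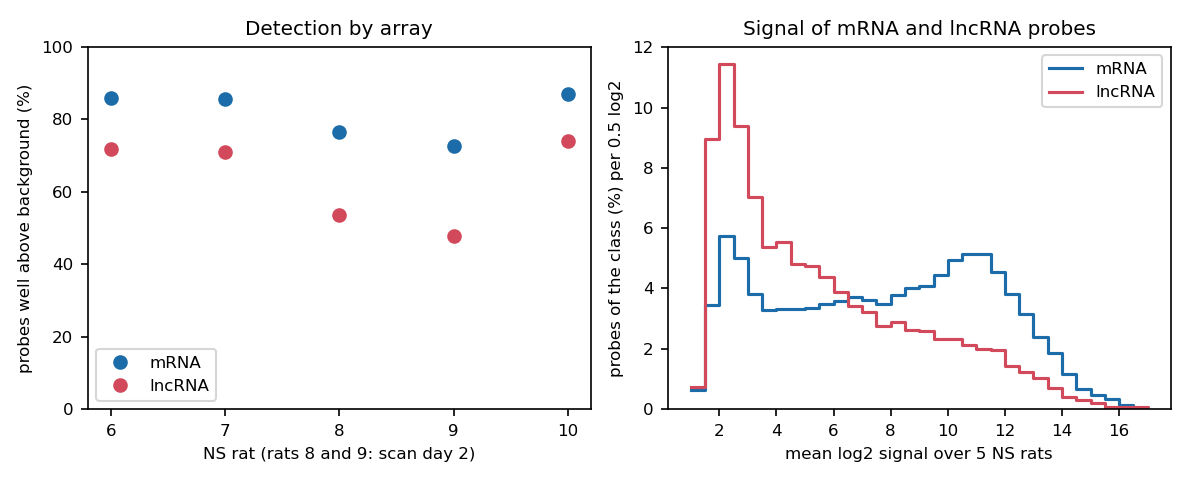
The left panel plots, for each of the 5 NS rats, the percentage of mRNA probes (blue) and lncRNA probes (red) that were well above background. The right panel plots the percentage of probes of each class per 0.5 units of mean log2 signal over the 5 rats, and lncRNA probes (median 4.66) lie lower than mRNA probes (median 8.02).

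In all 5 rats, 11073 mRNA probes (72.3%) and 4418 lncRNA probes (47.4%) were detected, and in no rat 1592 mRNA probes (10.4%) and 2153 lncRNA probes (23.1%). A further 1149 mRNA and 1395 lncRNA probes were detected in rats 6, 7 and 10 but in neither rat 8 nor rat 9. The median of the mean log2 signal was 8.02 for mRNA probes and 4.66 for lncRNA probes. The upper 10% of mRNA probes began at 12.54 and the upper 10% of lncRNA probes at 10.85, while the brightest probe of each class reached 16.73. The classes thus shared their upper limit and differed over most of their range.

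The lncRNA probes differed by the source of their accession. Of the 1698 probes with an XR_ accession, which RefSeq gives to non-coding RNAs, 56.7% were detected in all 5 rats, and 54 of the 100 brightest lncRNAs belonged to them. The 3588 probes with the prefix MRAK had a share of 46.8% and 17 of the 100 brightest. The 685 probes with the prefix MRuc had a share of 45.8%, and the 2252 probes with other accessions a share of 54.6%. The lowest share, 17.7%, was that of the 962 probes for ultraconserved regions (uc.), stretches of the genome that hardly changed in mammalian evolution. These probes had 1 spot each where the other sources had 3, and their median signal was 2.74. They came as 481 regions with a probe for either strand. Both strands were detected in all 5 rats for 29 regions, exactly 1 strand for 112 and neither for 340. In 52 regions 1 strand was detected in every rat and the opposite strand in none.

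The brightest mRNA probes belonged to myelin, axons, astrocytes and general cell functions. Mbp, myelin basic protein (GRCr8 chr18:78130652-78241174), had a probe at 16.91 in rat 6, 16.95 in rat 7, 16.27 in rat 8, 16.40 in rat 9 and 16.95 in rat 10. Its mean in rats 8 and 9 was lower than in the other rats, with a difference of -0.60 ± 0.07 (SE, limma adjusted p = 0.00673). Other bright probes were those of NM_001025002, which has no RefSeq gene here (16.66), Gnas, the alpha subunit of the stimulatory G protein (16.63), the matricellular gene Sparcl1 (16.60), the ferritin heavy chain Fth1 (16.52), the protease inhibitor Cst3 (16.46), the heavy neurofilament Nefh (16.44), a second Mbp probe (16.41) and Tmem50a (16.40). The brightest values lie close to the upper limit of the quantile normalization, where ranks are separated by small differences.

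Probes of 1 gene did not always share a rank. Of 6 Mbp probes, 5 lay above the 99th percentile and the probe of NM_001025289 lay at the 55.9th, with a mean of 8.79 ± 0.18 (SD, n = 5). For Oprm1, the mu opioid receptor through which morphine acts, the probe of NM_013071 had a mean of 5.57 ± 0.24 and was detected in 5 of 5 rats, that of NM_001038601 in 2 of 5 and the other 3 in none. A further Oprm1 probe, assigned to the lncRNAs, had a mean of 3.38 and was detected in 3 of 5 rats.

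Among lncRNAs, BC166798 had the highest signal (16.73 ± 0.06, SD, n = 5), followed by BC161988 (16.69), BC166770 (16.65), XR_006879 (16.62) and BC158811 (16.53). MRAK148606, MRAK149123, AY035551, MRAK154943 and MRBC052873 completed the first 10, with means between 16.34 and 16.03. Of these, 9 varied little, with an SD of at most 0.16, whereas MRAK154943 was at 16.37, 16.41 and 16.50 in rats 6, 7 and 10 and at 15.49 and 15.62 in rats 8 and 9. RefSeq gave a gene to 20 lncRNA probes. The brightest of these carried the names of protein-coding genes, Atp2a2 (13.84), Ngrn (12.63) and Dnlz (11.55), and some carried those of pseudogenes, such as Gapdh-ps1 (10.28). The lncRNA class as assigned here thus includes non-coding transcripts of such genes. Gas5, a host of small nucleolar RNAs, had a mean of 10.68 (89.2nd percentile of lncRNAs) and Rpph1, the RNA of ribonuclease P, of 8.91 (80.8th). The imprinted H19 was lower, at 5.64 (59.3rd). Terc, the telomerase RNA, was detected in 2 of 5 rats.

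Oligodendrocyte and astrocyte markers held the upper end of the mRNA ranking. Each of the 14 oligodendrocyte markers on the array was detected in all 5 rats, against 72.6% of all named genes, and 13 ranked above the 90th percentile (median 97.3). Cnp, a myelin enzyme, had a signal of 16.33 ± 0.10 (SD, n = 5), Cldn11 of the myelin tight junctions 15.75 ± 0.12, and Aspa, which breaks down N-acetylaspartate, was the lowest at 10.38 ± 0.10. The 8 astrocyte markers had a median percentile of 99.4, from Gfap, the intermediate filament of astrocytes (16.09 ± 0.05), to the glutamate transporter Slc1a2 (76.3rd percentile). Precursors of oligodendrocytes were represented by Pdgfra (12.06), Cspg4 (10.61) and Gpr17 (5.84).

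The 12 neuronal markers were all detected in 5 of 5 rats and spread over a wide range. The 3 neurofilament genes Nefh, Nefl and Nefm were at 16.44, 16.35 and 16.33, while the synaptic vesicle gene Syt1 was at 5.58 and the neuronal splicing factor Rbfox3 at 7.29. Inhibitory neurons were represented by the glycine transporter Slc6a5 (13.64 ± 0.18), the vesicular transporter Slc32a1 (13.61 ± 0.14) and the GABA-synthesizing Gad1 (13.10 ± 0.05), each above the 90th percentile, while Gad2, another GABA-synthesizing enzyme, and the regulator Pax2 lay at the 51.3rd and the 34.5th. The vesicular glutamate transporter Slc17a6 of excitatory neurons was at 12.75 ± 0.08, and Tac1, the precursor of substance P, at 11.73 ± 0.17. Of the same list, the neuropeptide gene Nmu lay at the 52.1st percentile and the receptor Grpr, detected in 3 rats, at the 18.1st. For motor neurons, Prph, a neurofilament-type protein, was at 14.45 ± 0.37, and the acetylcholine transporter Slc18a3 at 12.33 ± 0.28. The homeobox genes Isl1 and Isl2 were detected in 3 rats each.

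Microglial markers had a median percentile of 91.5, led by the complement gene C1qa (16.25 ± 0.34) and the receptor Csf1r (15.26 ± 0.18), with Itgam the lowest (7.71 ± 0.84, 47.8th percentile). Endothelial markers had a median percentile of 67.7, from the tight junction gene Cldn5 (13.32 ± 0.21) to Cdh5, which was detected in no rat. Mural and ependymal markers had medians of 53.3 and 37.9, and each was detected in all 5 rats.

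**Figure D2:**
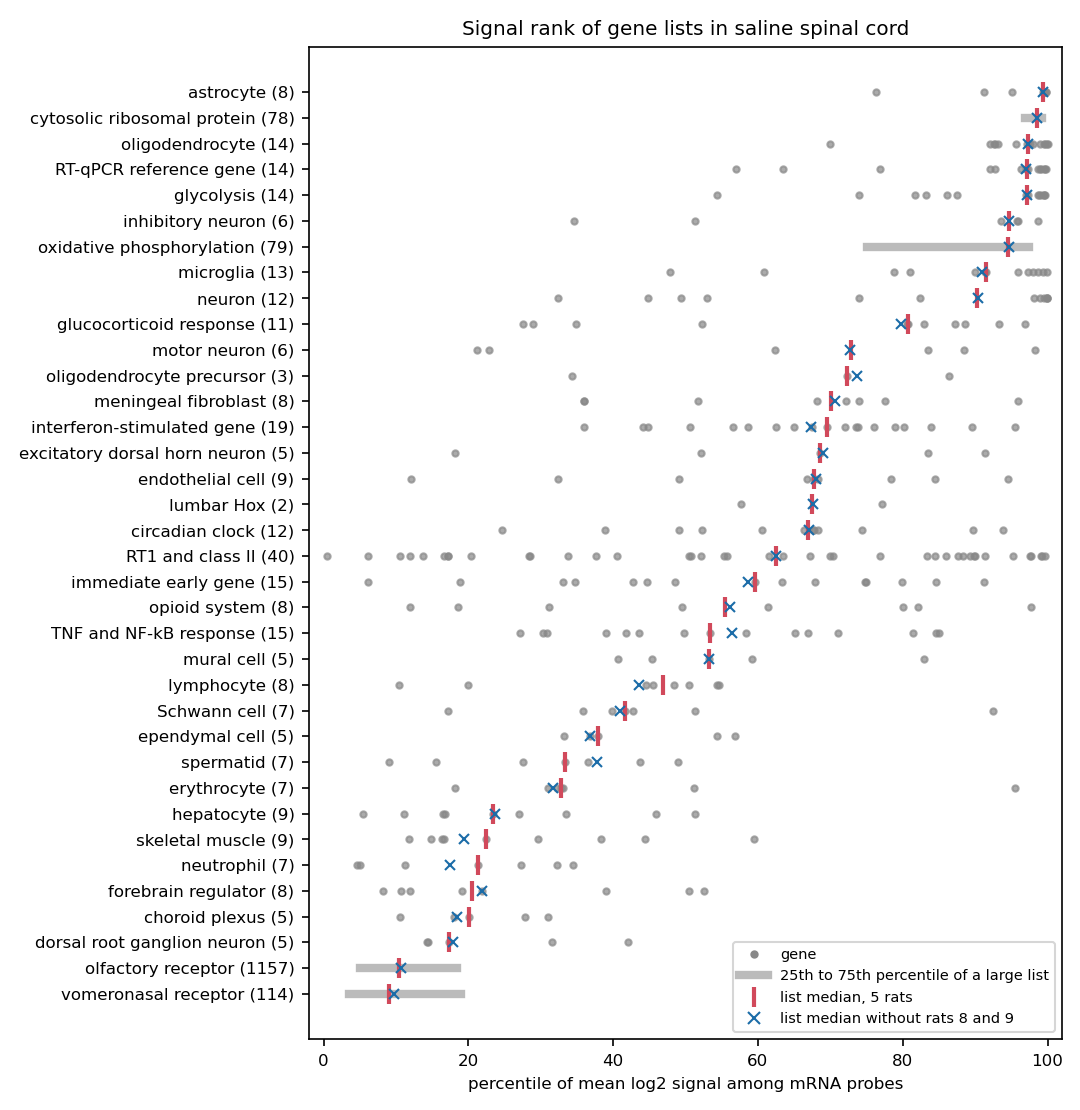
Each grey point is a gene at the percentile of its mean log2 signal among mRNA probes, each row is a gene list with the number of its genes on the array in brackets, and grey bars replace points for the 4 largest lists. Red lines mark list medians over 5 rats and blue crosses those without rats 8 and 9. Astrocyte, ribosomal and oligodendrocyte lists lie at the upper end, and receptors of smell and most lists of other tissues at the lower end.

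Housekeeping genes were bright, and they varied about as much as other bright probes. The median SDs of their lists were 0.12 to 0.13, against 0.12 for all mRNA probes at signals between 12 and 14 and 0.14 above 14. Single members varied more, such as Rpl6 (SD 0.49) and Cox6b2 (SD 0.54). The 78 cytosolic ribosomal protein genes had a median percentile of 98.6, with Rplp2 at 15.91, and 76 were detected in all 5 rats. Rpl11 was detected in no rat. The 79 oxidative phosphorylation genes, led by the ATP synthase subunits Atp5f1b (15.91) and Atp5f1a (15.39), had a median percentile of 94.6, and the 14 glycolytic genes of 97.1. The reference genes of RT-qPCR had a median percentile of 97.2 and were detected in every rat. Gapdh was at 14.17 and 14.23 in rats 8 and 9, above the other rats, of which rat 7 was lowest at 13.93. Tbp, the TATA-binding protein, was at 8.87, 8.94, 8.80, 8.90 and 9.01.

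Genes of tissues other than the cord lay mostly in the lower part of the ranking. The median percentile was 17.3 for the 5 markers of dorsal root ganglion neurons, 20.1 for choroid plexus, 21.3 for neutrophils, 22.4 for skeletal muscle and 23.4 for hepatocytes. It was 32.8 for erythrocytes and 33.4 for spermatids. Lymphocyte markers had a median of 46.9, close to the 50.4 of all named genes, with Cd8a at the 54.6th percentile and Cd3d at the 54.4th. The neutrophil granule genes Ltf and Mmp8 were detected in no rat, Ngp in 1 and S100a8 in 5 with a mean of 4.81 ± 0.74. Schwann cell markers were mixed, as Pmp22, which other cells also express, was at 12.92 and the other markers lay near or below the middle of the ranking. Hbb, the beta chain of haemoglobin, was at 13.53 ± 0.29, and the alpha chains Hba-a1 and Hba-a2 were at 5.67 and 5.63. Among 8 regulators of forebrain development, 3 were detected in all 5 rats, among them Neurod2 (8.34 ± 0.04). The position genes of the lumbar cord on the array were Hoxd10 (11.10 ± 0.40) and Hoxa11 (9.00 ± 1.43), both detected in 5 of 5 rats.

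The receptors of smell gave the lowest ranks. Of 1157 olfactory receptor genes, 548 were detected in no rat and 112 in all 5, with a median percentile of 10.5. The 114 vomeronasal receptor genes had a median percentile of 9.03, and 12 were detected in all 5 rats. Or9i1b stood apart at 12.24, with no usable spot in rat 10, and Vom2r15 at 10.83 ± 0.43.

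Among the genes of the opioid system, Penk, the precursor of enkephalins, was the brightest at 14.03, 14.08, 14.44, 14.51 and 14.10 in rats 6 to 10 (97.8th percentile). The other precursors were lower, with Pdyn at 11.57 ± 0.18, Pnoc at 11.37 ± 0.09 and Pomc at 9.46 ± 0.11. The receptors were lower again, with the delta receptor Oprd1 at 7.96 ± 0.17, Oprl1 at 5.39 ± 0.24 and the kappa receptor Oprk1 at 3.50 ± 0.66, the last detected in 4 of 5 rats.

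Leaving out the dim arrays of rats 8 and 9 left most of the brightest probes in the upper end of the ranking, though single ranks moved. The ranking by rats 6, 7 and 10 correlated with that by 5 rats with a Spearman rho of 0.998 over 15323 mRNA probes and of 0.994 over 9319 lncRNA probes, where 3 of the 5 arrays are shared. Of the 100 brightest, 94 mRNAs and 91 lncRNAs were the same. Among the brightest 10%, 1496 of 1532 mRNAs and 912 of 931 lncRNAs were the same. Without rats 8 and 9, Tmem50a moved from rank 10 to 3 and Gnas from 4 to 10, while Fth1, Cst3 and Nefh left the first 10 for ranks 12, 14 and 15. BC166798 stayed first among lncRNAs.

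Lower in the ranking, more lncRNAs moved. A shift of over 5 percentile points was seen for 532 mRNA probes (3.47%) and 1208 lncRNA probes (13.0%), but for 55 mRNA and 59 lncRNA probes of those detected in all 5 rats. Among the latter, the mRNAs that moved most were Dnajb7 (53.8th to 68.2nd percentile), the keratin Krt80 (63.1st to 76.5th), the deubiquitinase gene Usp13 (75.6th to 88.5th), the synaptotagmin Syt5 (57.3rd to 68.4th) and Megf9 (61.8th to 71.7th). The lncRNAs that moved most were XR_007274 (81.7th to 89.9th percentile), XR_009080 (77.1st to 85.0th) and MRAK158075 (75.6th to 83.1st), which rose in rank, and AF064856 (45.8th to 38.0th) and MRAK141699 (49.9th to 42.8th), which fell.

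Individual probes differed with scan day in both directions. In a limma fit of rats 8 and 9 against rats 6, 7 and 10, 5950 of 19253 probes detected in at least 3 rats passed an adjusted p of 0.05 (30.9%), with 3028 higher (15.7%) and 2922 lower (15.2%) in rats 8 and 9. The filter is one-sided, since a probe detected only in rats 6, 7 and 10 passes it and a probe detected only in rats 8 and 9 cannot. Probes of the first kind numbered 1149 mRNAs and 1395 lncRNAs, so the lower counts include probes that entered through the rats where they are high. Under a 75th percentile scaling the counts of all probes were 1446 higher and 5594 lower, so that the balance of directions depends on how arrays are scaled and filtered. Among mRNAs 27.4% passed (2100 higher, 16.3%, and 1416 lower, 11.0%) and among lncRNAs 38.0% (14.5% higher, 23.5% lower). Among probes detected on all 5 arrays the split was 2240 higher and 900 lower for mRNAs, and 834 higher and 818 lower for lncRNAs. Under the 75th percentile scaling it was 1183 higher and 2657 lower for mRNAs, and 262 higher and 2931 lower for lncRNAs. With 1 rat left out, the total fell to between 2193 and 4763, and it was 2193 without rat 9, 2398 without rat 8 and 3541 without rat 10. Animal and scan day remain 1 factor in this test.

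The largest differences were decreases of about 4 log2 units in rats 8 and 9. For some of these probes the rats of a scan day lay close together, and for others, such as Pierce1 (4.98, 6.35 and 5.15 in rats 6, 7 and 10), they did not. Dnajb7, a cochaperone gene, had a signal of 10.14, 10.10 and 10.24 in rats 6, 7 and 10 and of 6.02 and 6.06 in rats 8 and 9 (difference -4.12 ± 0.07 SE, limma adjusted p = 0.000541). Ckm, the creatine kinase of muscle, was at 8.84, 9.00 and 8.86 against 4.67 and 4.83. The scan days were separate for both genes, Ckm was not well above background in rat 9, and the muscle actin Acta1 lay between 9.12 and 9.33 in all rats. Krtap31-1, Pierce1 and Tmprss11d, also among the 5 mRNAs with the largest decrease, were not well above background in rats 8 and 9, so their differences there are bounds. They passed the filter only through rats 6, 7 and 10.

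The lncRNA XR_007274 was at 10.82, 10.80 and 10.94 in rats 6, 7 and 10 and at 6.50 and 6.36 in rats 8 and 9 (difference -4.43 ± 0.08 SE, limma adjusted p = 0.000541). XR_009080 was at 9.75, 9.72 and 9.89 against 5.85 and 5.80, and MRAK042323 at 13.00, 14.18 and 13.85 against 10.19 and 9.53. The other pair among the 5 largest were uc. probes that were not well above background in rats 8 and 9 and passed the filter only through rats 6, 7 and 10. In the opposite direction the largest differences were smaller, up to 2.14 for the lipase Pnliprp2 and 2.15 for the lncRNA MRAK082404, at signals near the lower end of the range. These sizes depend on the processing, as they were 1.09 and 1.08 under the 75th percentile scaling and 0.55 and 0.50 with normexp. Pnliprp2 was not past the threshold without rat 8 (limma adjusted p = 0.0595) or rat 9 (limma adjusted p = 0.0685). St8sia4, Pnma8a, Omp and Or12d13 among mRNAs and MRAK050857, AB074423 and a pair of uc. probes among lncRNAs completed these lists, with differences of 1.90 to 2.09, and several were not well above background in some of rats 6, 7 and 10.

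**Figure D3:**
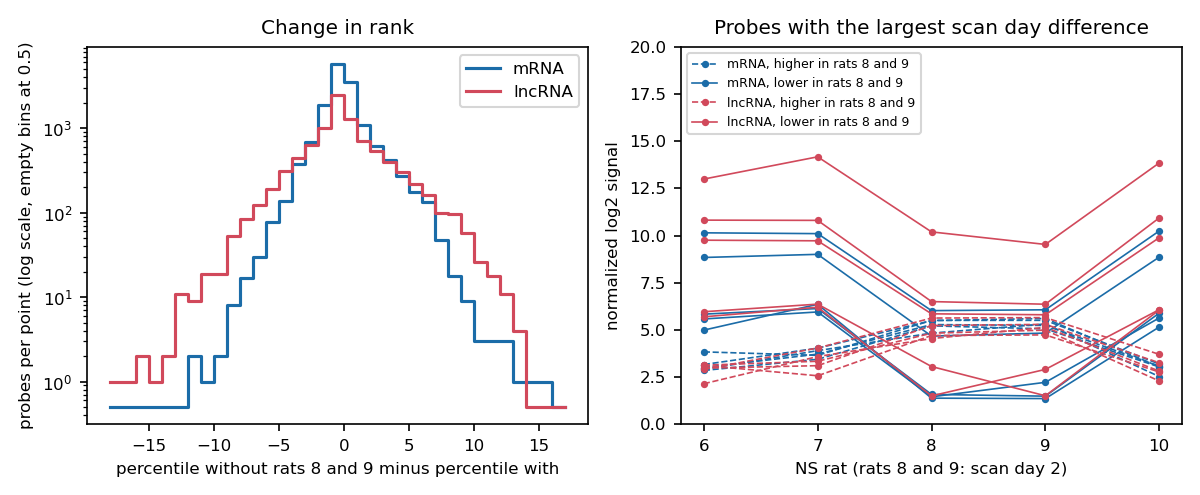
The left panel shows, on a log scale, how many mRNA (blue) and lncRNA (red) probes moved by how many percentile points when rats 8 and 9 were left out, and the lncRNA curve is the wider one. The right panel plots the normalized log2 signal in each NS rat of the 5 probes per class and direction with the largest scan day difference, where solid lines drop in rats 8 and 9 (XR_007274 from about 10.8 to 6.4) and dashed lines rise.

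Among gene lists detected in nearly full number in all 5 rats, 24 of 78 oxidative phosphorylation genes were higher in rats 8 and 9 and 7 lower, against 16.6% higher and 11.1% lower of all named genes. Of 76 ribosomal protein genes 14 were higher and 8 lower, and of the 14 reference genes 5 were higher, by the same limma test. The named genes include dimmer ones that were not detected in all 5 rats. Among mRNA probes detected on all 5 arrays, 2240 of 11073 were higher and 900 lower. Under the 75th percentile scaling the balance of mRNAs was the reverse, with 1183 higher and 2657 lower. An excess of these lists over such shares was not tested.

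The spread between rats was small for most probes. Among probes detected in all 5 rats, the median SD of the log2 signal was 0.16 for mRNAs and 0.19 for lncRNAs, the former equal to a 1.12-fold difference. Within a scan day the pooled SD was 0.095 and 0.10. For lncRNA probes with 3 spots, the median SD between spots of 1 array was 0.069. The SD fell with signal, from 0.38 (mRNA) and 0.32 (lncRNA) at signals between 4 and 6 to 0.12 in both classes between 12 and 14. Above a signal of 6 the class medians differed little at equal signal, while the upper tail was wider for lncRNAs. The 90th percentile of the SD was 0.39 for lncRNAs and 0.24 for mRNAs at signals between 12 and 14. Between 4 and 6 it was lower for lncRNAs, at 0.61 against 0.69. Most lncRNA values average 3 spots and most mRNA values rest on 1 spot, so these SDs do not compare the classes on equal terms. After normexp background correction the medians of mRNAs and lncRNAs were 0.133 and 0.132.

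**Figure D4:**
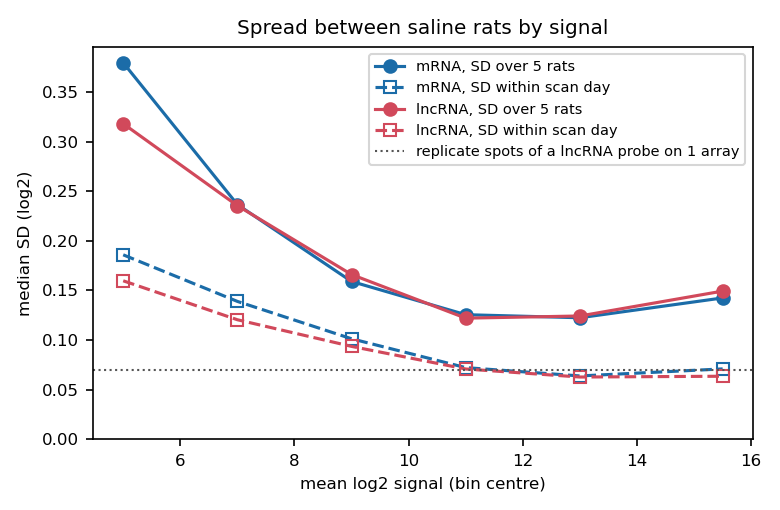
Median SD of the log2 signal over 5 NS rats (filled points) and pooled within scan day (open squares) against the mean log2 signal, for mRNA (blue) and lncRNA (red) probes detected in all 5 rats, in bins of at least 20 probes. The dotted line is the median SD between replicate spots of a lncRNA probe (0.069). The SD within scan day lies close to it above a signal of 10, and below it between 12 and 14 (mRNA 0.064, lncRNA 0.063). The line is an SD of single spots, while most lncRNA values average the spots of a probe, so it is not a floor for the points.

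Some bright genes hardly varied. The 5 mRNAs with the smallest SD among those above the median signal were Adcy3, an adenylyl cyclase (11.19 ± 0.0085), Nde1 (9.68 ± 0.0095), Cnot7 (11.31 ± 0.012), Macir (11.75 ± 0.012) and Zhx1 (10.73 ± 0.013). The corresponding lncRNAs were MRAK004787 (13.16 ± 0.0094), BC087711 (10.92 ± 0.011), MRAK012842, MRAK076730 and MRAK143013. These SDs lie below the SD between spots of 1 array given above, so no order among them was read.

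An SD above 1 was seen for 99 mRNA probes (0.894%) and 76 lncRNA probes (1.72%). The variable lncRNAs mostly followed scan day. Rats 8 and 9 lay below the other 3 rats for 158 of the 220 lncRNAs in the most variable 5% (71.8%), against 27.1% of all lncRNAs detected in all rats, and for 176 of 553 such mRNAs (31.8%), against 16.2%. In this set, XR_006113, XR_008661, MRAK158075, MRAK086495 and MRAK015320 were low in rats 8 and 9, besides the lncRNAs named above. Within scan day 19 lncRNAs had an SD above 1, and 69 mRNAs did.

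Other probes differed between rats of the same scan day. The most variable mRNA, NM_001101017, without a RefSeq gene here, was at 10.86, 8.90, 10.16, 8.06 and 4.48 in rats 6 to 10. Cxcl1, a chemokine that attracts neutrophils, was at 12.07, 10.29, 11.24, 9.43 and 6.40. Fam111a, a protease gene, was at 11.70, 11.31, 11.11, 10.07 and 6.94. All of these were highest in rat 6 and lowest in rat 10, which were scanned on the same day. The lncRNA L11340 had the same highest and lowest rats, with 10.60, 9.32, 9.89, 8.20 and 6.18.

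A few variable genes followed other rats. The transcription factor gene Dmrt2 was at 6.16, 10.92, 7.38, 7.43 and 6.07 and so was high in rat 7. Akr1b10, a reductase gene, was lowest in rat 7 (3.66) and highest in rat 10 (8.56). The lncRNA EF121972 was highest in rat 7 (7.74) and lowest in rat 10 (3.31). RT1-Bb, a beta chain of MHC class II, was well above background in rats 7, 9 and 10 (9.83, 8.95 and 9.83) and not in rats 6 and 8 (1.38 and 1.65).

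Genes that respond to TNF and NF-κB, an inflammatory signal and the transcription factor it activates, mostly varied together. Of the 15 on the array, 13 were detected in all 5 rats, with a median SD of 0.95 against 0.16 for all named genes, and 5 of the 13 had an SD above 1, against 0.922% of all named genes. Rat 6 was highest and rat 10 lowest for 10 of the 13, against 3.27% of all named genes. The mean log2 signal of the 13 was 9.94 in rat 6, 9.27 in rat 7, 9.61 in rat 8, 8.81 in rat 9 and 7.39 in rat 10. The monocyte chemokine Ccl2 was at 11.85, 11.03, 11.51, 10.38 and 7.72, the cytokine Il1b at 12.89, 12.46, 12.44, 11.58 and 10.09, and the cytokine Il6 at 6.88, 5.07, 6.28, 5.49 and 3.00. Cxcl2, a chemokine related to Cxcl1, was at 8.11, 7.41, 8.06, 7.04 and 3.83. Vcam1, an adhesion molecule, moved less, at 12.17, 11.82, 12.06, 11.67 and 11.49. The exceptions were Nfkbia and Icam1, which were highest in rat 8 (11.88 and 9.65) and lowest in rat 10, and Nfkb2. The last was lowest in rat 9, at 8.89, 9.01, 8.10, 7.77 and 8.56 in rats 6 to 10.

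Some matrix and other genes shared this order. The collagen Col3a1 was at 11.80, 10.82, 11.15, 9.98 and 9.19, and Dcn and Lum, which encode proteoglycans of connective tissue, were also highest in rat 6 and lowest in rat 10. The mean of the 8 meningeal fibroblast markers ranged from 10.09 in rat 6 to 8.99 in rat 10, and rat 6 was highest and rat 10 lowest for 4 of them. The others did not share the order, as Ptgds (13.48) and Aldh1a2 (7.96) were lowest in rat 6, Igf2 was highest in rat 8 (10.91) and Col1a2 lowest in rat 9 (10.56). Among immediate early genes, which neurons and other cells induce within minutes of a stimulus, rat 6 was highest and rat 10 lowest for 5 of 13, including Junb (13.22, 12.82, 13.11, 12.64 and 11.83) and Ccn1 (9.52, 7.86, 8.80, 7.18 and 5.76). Fos itself was at 7.32, 6.96, 7.79, 7.50 and 6.73. Neutrophil markers did not share the order, with Ltf and Mmp8 detected in no rat. In tissue RNA, more cells of a type and more RNA per cell cannot be told apart, and the part of meningeal tissue in these differences was not tested.

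Several genes of position, motor neurons and peripheral nerve had their highest values in rats 6 and 8, and they were picked after their values were seen. Hoxa11 was at 11.02, 7.92, 10.00, 8.17 and 7.91 in rats 6 to 10, and Hoxd10 at 11.73, 10.69, 11.23, 10.87 and 10.98. Prph was at 14.86, 14.07, 14.79, 14.41 and 14.12, and the choline transporter Slc5a7 at 12.01, 11.45, 12.06, 11.80 and 11.33. The acetylcholine transporter Slc18a3 shared this order, with 12.77 in rat 6, 12.43 in rat 8 and 12.07 in rat 10. The Schwann cell markers Pmp22 (13.24, 12.61, 13.17, 12.97 and 12.62), Prx (7.56, 6.21, 7.11, 6.82 and 6.67) and Ngfr also had rats 6 and 8 highest, and P2rx3 of sensory neurons was highest in rat 6 (7.17). Isl2 did not share this order, with its highest value in rat 10 (4.89), and Isl1 was highest in rats 8 and 9. The Schwann cell markers Egr2, Pmp2 and Cdh19 and the sensory neuron gene Trpv1 were also highest in rats 8 and 9, so the markers of peripheral nerve did not move as 1 set.

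Genes induced by interferon, the antiviral cytokine, varied with different rats. All 19 on the array were detected in 5 of 5 rats, with a median SD of 0.92. Rat 7 was highest for 18 of 19, against 11.9% of mRNA probes detected in all rats, and rat 10 lowest for 18 of 19, against 28.6%. The transcription factor Irf7, a regulator of interferon genes, was at 11.09, 13.83, 13.60, 13.41 and 10.45, Slfn4 at 10.64, 12.68, 12.44, 12.12 and 8.99, and Ifit3, an antiviral effector, at 8.07, 10.91, 10.60, 10.52 and 7.89. Mx2, at 11.01, 11.70, 10.25, 10.38 and 11.55, was the gene for which rat 10 was not lowest. Cxcl11 was the gene for which rat 7 was not highest. Lymphocyte markers moved with the same rats, as rat 7 was highest and rat 10 lowest for 4 each of the 5 detected in all rats, with list means of 7.84, 8.55, 8.33, 8.11 and 7.11 and a median SD of 0.66. Of the 8 lymphocyte markers on the array, the T cell gene Cd8a was at 8.63, 9.37, 9.09, 8.78 and 7.28, and the part of lymphocytes in the interferon values was not tested. The list was drawn up after these values had been seen, so the counts describe these rats only.

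**Figure D5:**
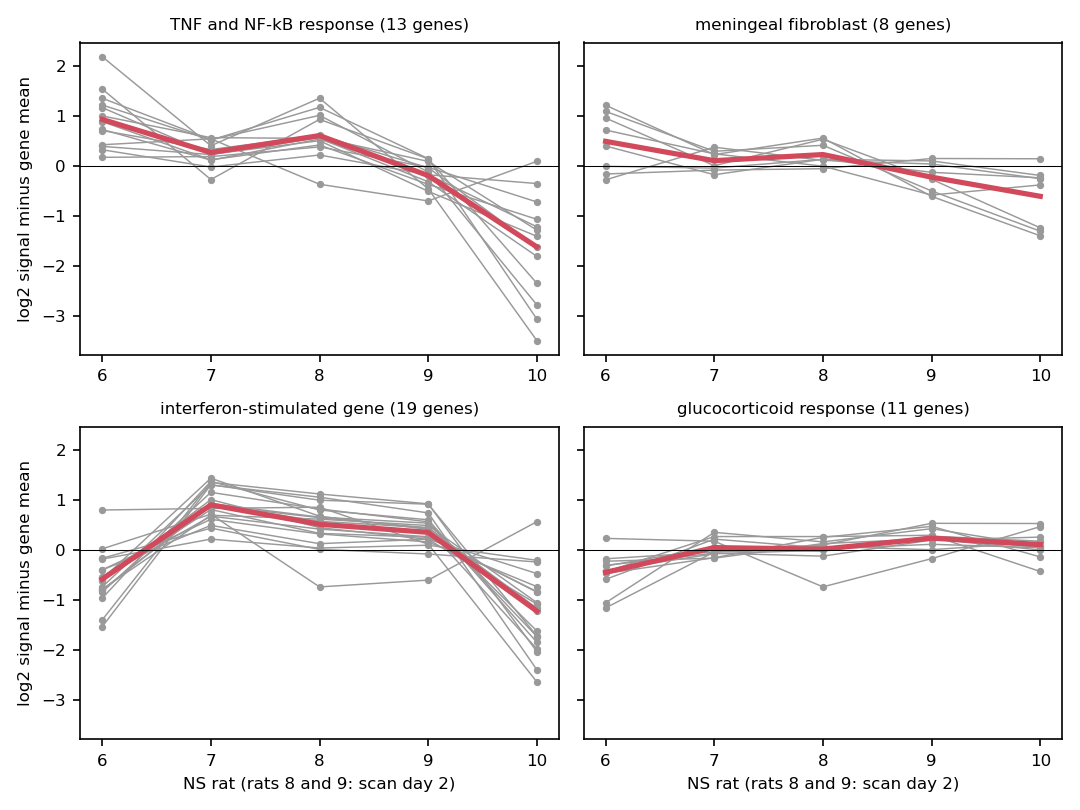
Normalized log2 signal minus the mean of the gene over 5 NS rats, for each gene detected in all 5 rats (grey) and for the list mean (red), in 4 gene lists. The list means of TNF and NF-kB response and of meningeal fibroblast genes are highest in rat 6 and lowest in rat 10. The list mean of interferon-stimulated genes is highest in rat 7, and that of glucocorticoid response genes is lowest in rat 6.

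The stretch of 250 bases before the start is shown for 4 genes that varied by the 2 patterns over rats given above for these lists. Cxcl1 and Cxcl2 had the largest SD of the TNF and NF-κB list, Irf7 had the largest of the interferon list, and Ifit3 was among its 4 most variable genes. Sequences are from the RefSeq promoters of GRCr8, written 5′ to 3′ on the strand of the gene. Capitals mark matches, on either strand, to the letters GGGA and TTCC with any 2 bases between them, a core of NF-κB sites, in Cxcl1 (chr14:17479322-17479571, minus strand) and Cxcl2 (chr14:17467256-17467505, minus strand), and to GAAA 2 times with any 2 bases between, a core of interferon response elements, in Irf7 (chr1:205800024-205800273, minus strand) and Ifit3 (chr1:241527076-241527325, plus strand).
Cxcl1: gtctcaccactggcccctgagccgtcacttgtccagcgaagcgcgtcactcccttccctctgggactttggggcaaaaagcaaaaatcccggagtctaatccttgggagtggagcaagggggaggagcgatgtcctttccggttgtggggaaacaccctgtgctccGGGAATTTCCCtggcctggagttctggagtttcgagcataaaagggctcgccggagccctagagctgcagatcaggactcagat
Cxcl2: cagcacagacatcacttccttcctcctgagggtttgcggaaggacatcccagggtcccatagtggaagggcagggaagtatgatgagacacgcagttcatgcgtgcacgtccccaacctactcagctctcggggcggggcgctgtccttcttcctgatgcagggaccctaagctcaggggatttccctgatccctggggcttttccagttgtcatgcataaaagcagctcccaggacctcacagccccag
Irf7: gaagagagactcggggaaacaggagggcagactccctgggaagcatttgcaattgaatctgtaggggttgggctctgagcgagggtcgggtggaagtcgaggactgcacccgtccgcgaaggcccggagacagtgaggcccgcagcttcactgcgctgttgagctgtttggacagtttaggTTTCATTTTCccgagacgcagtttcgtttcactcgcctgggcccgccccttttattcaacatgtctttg
Ifit3: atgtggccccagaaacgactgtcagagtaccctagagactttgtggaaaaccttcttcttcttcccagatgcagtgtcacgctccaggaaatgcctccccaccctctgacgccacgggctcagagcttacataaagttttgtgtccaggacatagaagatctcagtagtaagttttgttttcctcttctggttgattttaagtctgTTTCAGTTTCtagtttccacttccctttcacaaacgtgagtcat
The first motif was found 2 times, overlapping, in Cxcl1, beginning 84 and 83 bases before the start, and not in Cxcl2. The pattern is narrow, and the Cxcl2 stretch holds ggggatttccc, a close variant that it does not count. No match in Cxcl2 is therefore not the same as no NF-κB site. The second motif began 69 bases before the start of Irf7 and 44 before that of Ifit3. In windows of the same length, 5 of 13 TNF and NF-κB genes with a promoter sequence held the first motif, against 1.07% of 27457 promoters. Of 14 interferon genes, 9 held the second, against 3.29%. Among 11351 promoters of measured genes the shares were 1.22% and 3.18%. The second motif was in 1 of the 13 and the first in 2 of the 14. Each list was made of genes that respond to its signal, so these counts describe the lists and not the rats. These matches describe letters, and binding was not measured.

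RT1-Da, Cd74 and RT1-Db1 of the MHC class II system were lowest in rat 10, unlike RT1-Bb above. RT1-Da was at 14.26, 13.75, 14.53, 13.55 and 11.30 in rats 6 to 10, Cd74, the invariant chain, at 12.51, 12.17, 12.44, 11.66 and 9.77, and RT1-Db1 at 12.74, 11.00, 11.88, 10.21 and 9.47. Of the 29 RT1 and class II genes detected in all 5 rats, rat 10 was lowest for 17, against 28.6% of all named genes. That share was not particular to these genes, as rat 10 was also lowest for 45 of 76 ribosomal protein genes and 7 of 14 reference genes. Microglial markers varied less (mean 12.67, 12.91, 12.98, 12.87 and 12.44), and rat 10 was lowest for 8 of 13. Glucocorticoid response genes, which stress hormones induce, had their lowest mean in rat 6 (9.57) and lay between 10.03 and 10.25 in the other rats. Sgk1, a kinase of that list, was at 11.10, 12.50, 12.31, 12.58 and 12.23. The mean of the circadian clock genes lay between 9.87 and 9.98. Of 12 tested for scan day, 1 was higher and 2 were lower in rats 8 and 9, against 16.6% and 11.1% of all named genes. No pattern of the list was read from these counts. Per3 was at 7.24 and 7.41 in rats 8 and 9 against 8.17, 8.39 and 8.35 in rats 6, 7 and 10 (limma adjusted p = 0.00571), whereas Per1 was 0.62 higher in rats 8 and 9 (limma adjusted p = 0.0344).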

How the data were processed

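Total RNA from the spinal cord of 5 NS rats was labelled and hybridized to one-colour arrays, 1 per rat. The authors read the scans with Agilent Feature Extraction 11.0.1.1, per the submitters' processing notes, and deposited for each spot a background-subtracted intensity on a linear scale, with flags for outliers and for signal well above background. The authors also deposited a table of quantile-normalized log2 values, which served as an alternative here.

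After a floor of 1 and log2 conversion, the 5 arrays were quantile normalized together with limma 3.58.1 in R 4.3.3. Quantile normalization gives every array the same distribution, so shifts of the whole distribution are removed. Spots marked as outliers (507 to 621 per array) were left out, and spots of a probe and probes of a gene were averaged. No spot remained for 83 probe values. Symbols and positions came from RefSeq (GRCr8) by accession without version. Positions are those of genes, not of probes.

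Detection was compared by an exact sign-flip test over the 5 arrays, and scan day by limma with Benjamini-Hochberg adjustment, tested on simulated arrays. Replicates are separate rats. Named were the 10 brightest and 10 most variable probes per class, the 5 least variable, the 5 with the largest scan day difference per direction, the 5 whose percentile moved most, and from each list the 2 highest and 2 lowest genes and the most variable; any RNA named beyond these was picked with its values known, as was the interferon list. The members and lists were chosen with earlier results of these data known. Promoters were read from RefSeq. Alternatives were other scalings, background corrections, filters and detection rules, the deposited table, outlier spots kept, a variance trend, array weights, the brightest probe of a gene, and leaving out rats. Python 3.11.15 and matplotlib 3.10.9 made the figures. The number of arrays limits the precision of every value. The MT arrays were not used here, and some genes are not reported here.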

Additional observations from a re-analysis of the deposited data

Results flagged for a closer look

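In 110 values or lists examined over the 5 rats, 2 had 1 rat far from the other 4, with a gap above 0.71 of the whole range (Dixon's test). Dmrt2 was highest in rat 7 (10.92, next 7.43), with a gap of 0.719 of the range. Cxcl2 was lowest in rat 10 (3.83, next 7.04), with a gap of 0.75 of the range. Chance alone gives about 1 in 20 groups of this size, and both genes had been chosen for a large spread.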

How the results depend on the processing

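The difference in detection kept its direction under each alternative run, at 13.8 (any spot) to 22.5 (all spots) percentage points and 16.2 to 19.2 with 1 rat left out. Of the 100 brightest, at least 91 lncRNAs and 94 mRNAs were shared with the ranking over 5 rats under each alternative run, and 98 genes when the brightest probe stood for a gene. Of 432 median percentiles of gene lists, 1 moved by over 5 points: that of motor neurons rose by 13.1 when the brightest probe stood for a gene. The spread depended on the settings. The median SD of mRNAs was 0.490 without normalization, 0.157 with scaling by the 75th percentile, 0.133 with normexp, 0.155 in the deposited table, 0.105 without rats 8 and 9, 0.197 and 0.184 with a filter on at least 1 and 3 arrays, 0.216 with no filter, 0.0949 within scan day, and 0.158 to 0.164 with 1 rat left out. For lncRNAs it was 0.555 without normalization, 0.132 with normexp, 0.185 in the deposited table, 0.111 without rats 8 and 9, 0.283 and 0.257 with the filters, 0.306 with no filter, 0.102 within scan day and 0.184 to 0.198 with 1 rat left out. The number of mRNAs with an SD over 1 was 487 without normalization, 49 with normexp, 556 and 442 with the filters, 593 with no filter and 74 to 129 with 1 rat left out. That of lncRNAs was 130 with scaling by the 75th percentile, 492, 43, 281, 251 and 294 under the same settings as for mRNAs, 28 without rats 8 and 9, 19 within scan day and 56 to 92 with 1 rat left out. Within scan day and no normalization change the SD by construction, and so do the filters, which add dim probes. The cause of the other shifts was not tested.

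The scan day counts ranged from 2193 to 4763 in all, from 1110 to 2799 for mRNAs and from 1078 to 1956 for lncRNAs with 1 rat left out. The filter on all 5 arrays gave 3078 higher and 1720 lower. Of 246 scan day differences of named probes under alternatives, 227 stayed past the threshold, 19 did not and 0 changed sign in limma. The normexp setting used the median signal of each spot, chosen after seeing the data, because the files hold no mean signal; the SD within scan day and the outlier spots kept for scan day were also added then. No paired analysis was possible because each rat has its own number and only 1 group was described. Dim arrays limit detection, since between 58.6% and 79.6% of spots per array passed the background flag.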
